A study of Mus musculus with 2 samples.

Results

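The genes that write, maintain and remove DNA methylation were followed through spermatogenesis in 2 single-cell RNA libraries from adult C57BL/6 mouse testis, 1 labelled Zfp541-/- and 1 WT. The Zfp541 product is a germ cell protein with zinc fingers, and the study compared spermatogenesis in its absence with the wild type. The 9 genes were chosen by symbol: Hells, Uhrf1, Dnmt1, Dnmt3a, Dnmt3b, Dnmt3l, Tet1, Tet2 and Tet3. All 9 were present among the 31053 genes of the deposited matrices. Per the labels, the sorted cells were tetraploid germ cells, although the sample titles read whole testis. The WT library holds 333, 619 and 393 cells annotated as round spermatids of stages 1, 2 and 3 and 111 as elongated spermatids, haploid cells that go against a tetraploid sort. The labels do not say how many animals gave cells to a library.

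The authors assigned 8833 cells of the library labelled Zfp541-/- and 8420 cells of the WT library to stages, and their stage names are used here. The median cell held 10905 unique molecular identifiers (UMIs, each a counted RNA molecule) in the library labelled Zfp541-/- and 11246 in WT. Zfp541 RNA was higher in the library labelled Zfp541-/-, at 81.9 CPM (UMIs per 1000000 of the stage's total) in mid pachytene against 28.1 CPM in WT, and at 70.6 CPM in late pachytene against 35.8 CPM in WT. The labels do not state which part was deleted, and a 3′ count outside the deleted part checks nothing, so the library is called by its label. The libraries shared 17 cell barcodes. Summed markers of Sertoli, Leydig, myoid, endothelial, macrophage and red cells each reached at most 2.33 CPM in the 3 pachytene stages of the library labelled Zfp541-/- and at most 5.04 CPM in those of WT. With 1 library per genotype no test was possible. Every interval below is a 95% interval for counting error only and leaves out the variation between animals and between preparations.

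DNMT1 copies methylation to the new strand after replication, and UHRF1 brings it to hemimethylated sites. DNMT3A and DNMT3B methylate unmarked DNA, and DNMT3L is a cofactor without catalytic activity that is required for methylation of the male germ line before birth. HELLS, also called LSH, is a chromatin remodeller needed for normal methylation, and in mouse spermatocytes it acts with PRDM9 at recombination hotspots. TET1, TET2 and TET3 oxidise methylated cytosine, a step in its removal. In germ cells, replication takes place in dividing spermatogonia and in preleptotene cells, while pachytene spermatocytes repair DNA breaks without replicating.

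The genes lie on 8 chromosomes of the GRCm38 (mm10) genome (GENCODE M21). Hells is at chr19:38930915-38971051 on the plus strand, Uhrf1 at chr17:56303321-56323486 on the plus strand, and Dnmt1 at chr9:20907209-20959888 on the minus strand. Dnmt3a is at chr12:3806007-3914443, Dnmt3b at chr2:153649450-153687730 and Dnmt3l at chr10:78041947-78063622, all on the plus strand. Tet1 is at chr10:62804570-62908996, Tet2 at chr3:133463679-133545139 and Tet3 at chr6:83362373-83459084, all on the minus strand. Dnmt3l overlaps Aire on the opposite strand, and the sources used here do not give whether the counting used strand.

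The start regions of 4 genes are printed because their genes show the 3 patterns described below: Hells and Dnmt1, higher in the pachytene cells labelled Zfp541-/-, Uhrf1, at nearly the same CPM in both libraries, and Dnmt3l, highest in WT round spermatids. Each runs from 250 bases before a RefSeq start site to 50 bases after it (GRCm38.p6), 5′ to 3′ on the gene's strand, with motif matches in capitals. The motifs, searched on both strands, were TTTCCCGC and TTTGGCGC (binding sequences of E2F, which drives replication genes), GCCCCGCCC (SP1) and CCAAT. Overlapping matches of CCAAT on opposite strands run together.
Hells, start 1 of 1, chr19:38930740-38931039 (+): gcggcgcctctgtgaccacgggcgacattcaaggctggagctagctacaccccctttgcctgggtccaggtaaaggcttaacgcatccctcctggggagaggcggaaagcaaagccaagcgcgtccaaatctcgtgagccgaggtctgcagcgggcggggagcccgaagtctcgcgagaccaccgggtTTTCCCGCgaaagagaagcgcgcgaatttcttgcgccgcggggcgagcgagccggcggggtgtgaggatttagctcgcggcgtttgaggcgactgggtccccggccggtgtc
Dnmt1, start 3 of 3, chr9:20952574-20952873 (-): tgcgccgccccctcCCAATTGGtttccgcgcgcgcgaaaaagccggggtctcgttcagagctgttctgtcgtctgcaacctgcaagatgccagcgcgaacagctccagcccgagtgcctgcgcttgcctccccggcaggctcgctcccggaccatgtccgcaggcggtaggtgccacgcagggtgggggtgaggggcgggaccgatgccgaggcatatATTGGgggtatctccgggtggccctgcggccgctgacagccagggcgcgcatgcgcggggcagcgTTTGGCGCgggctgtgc
Uhrf1, start 2 of 2, chr17:56304063-56304362 (+): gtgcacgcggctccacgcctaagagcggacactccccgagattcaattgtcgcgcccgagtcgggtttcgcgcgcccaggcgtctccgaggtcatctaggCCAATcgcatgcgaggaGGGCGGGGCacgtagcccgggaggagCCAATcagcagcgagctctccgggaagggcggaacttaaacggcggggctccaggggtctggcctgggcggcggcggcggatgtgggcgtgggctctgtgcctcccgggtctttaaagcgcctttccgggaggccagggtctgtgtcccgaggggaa
Dnmt3l, start 1 of 3, chr10:78042037-78042336 (+): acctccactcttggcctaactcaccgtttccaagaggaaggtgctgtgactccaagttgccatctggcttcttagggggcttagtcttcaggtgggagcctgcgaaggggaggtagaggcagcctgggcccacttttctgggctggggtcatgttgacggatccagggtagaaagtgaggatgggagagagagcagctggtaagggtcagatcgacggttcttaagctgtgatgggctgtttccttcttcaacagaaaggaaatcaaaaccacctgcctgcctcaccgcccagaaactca

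The Hells region held 34 CpG dinucleotides and 1 TTTCCCGC. The Dnmt1 region held 33 CpG dinucleotides, 1 TTTGGCGC and 3 CCAAT matches. The regions at Dnmt1 starts 1 and 2 held 2 and 12 CpG dinucleotides and no E2F match, with 5 CCAAT matches at start 1. The Uhrf1 region held 33 CpG dinucleotides, 1 GCCCCGCCC and 2 CCAAT matches. The region at Uhrf1 start 1 held 12 CpG dinucleotides, 3 CCAAT matches and no GCCCCGCCC. The Dnmt3l region held 6 CpG dinucleotides and none of the motifs, and the regions at the other 2 Dnmt3l starts held 4 and 3 CpG dinucleotides, with 1 GCCCCGCCC at the second start. All 9 genes matched RefSeq, with 16 start regions between them, of which 2 held an E2F match, 4 held GCCCCGCCC and 5 held CCAAT. Among all 32851 start regions of this length, 1.56% held either E2F sequence, 11% held GCCCCGCCC and 37.4% held CCAAT. These matches describe the sequence, and binding was not measured. The counts at the 3′ end do not tell which start of Uhrf1, Dnmt1, Dnmt3a or Dnmt3l was used.

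Hells RNA was abundant before and at the entry to meiosis and lower in pachytene. In the library labelled Zfp541-/- it measured 709 CPM, 960 CPM and 949 CPM in the differentiated spermatogonia stages 1, 2 and 3, 1468 CPM (interval 1413 to 1525) in preleptotene and 1215 CPM in leptotene. It was 331 CPM in zygotene, 463 CPM in early pachytene, 213 CPM in mid pachytene and 154 CPM in late pachytene. Preleptotene was thus the highest stage in CPM, whereas in UMIs per cell spermatogonia stage 2 was highest, at 7.75 against 5.53 in preleptotene. In CPM, with the 9 stages ranked by level the intervals of neighbours overlapped only between spermatogonia stages 2 and 3. The first 6 stages held only 8 to 39 WT cells each, and Hells there was 417 CPM, 691 CPM and 692 CPM in the spermatogonia, 1109 CPM (interval 737 to 1602) in preleptotene, 973 CPM (interval 624 to 1448) in leptotene and 63.4 CPM, from 4 UMIs, in zygotene. These few cells do not rank WT preleptotene against leptotene. The WT library continued to spermatids, and Hells was 78.9 CPM in early, 37.4 CPM in mid and 24.2 CPM in late pachytene, then 16.9 CPM in diplotene, 9.12 CPM in the first meiotic division, 6.69 CPM, 2.36 CPM and 1.41 CPM in round spermatid stages 1, 2 and 3, and 1.18 CPM, from 1 UMI, in elongated spermatids. The intervals of neighbouring WT stages from early pachytene to the first meiotic division did not overlap.

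**Figure D1:**
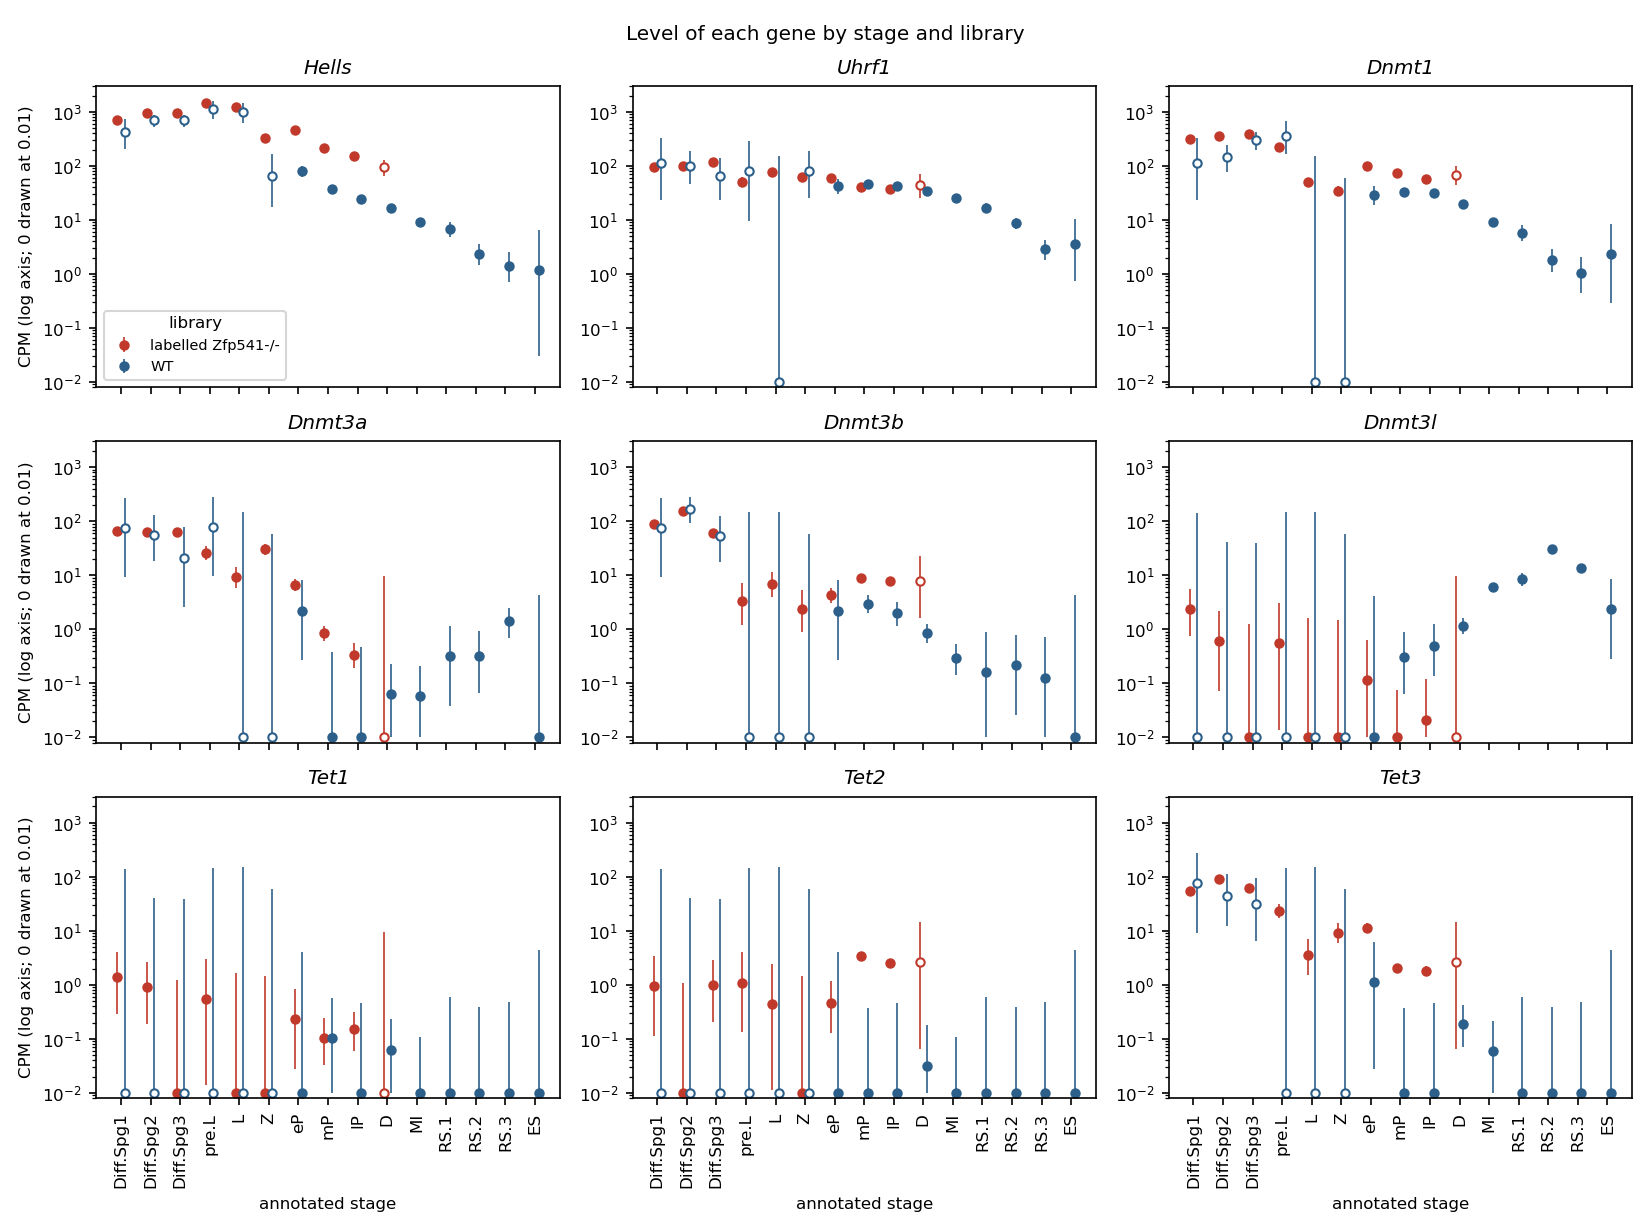
Level of each gene (y axis, CPM on a log axis, with 0 drawn at 0.01) across the authors' stages (x axis), with the library labelled Zfp541-/- beside WT and counting intervals as bars; filled points mark stages with at least 50 cells and open points fewer. Hells is highest in preleptotene of the library labelled Zfp541-/-, at 1468 CPM, and Dnmt3l reaches 30.3 CPM in WT round spermatids of stage 2.

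Maintenance methylation genes were highest in spermatogonia of the library labelled Zfp541-/-. Dnmt1 measured 313 CPM, 350 CPM and 381 CPM in spermatogonia stages 1, 2 and 3 of the library labelled Zfp541-/-, 226 CPM in preleptotene, 49.3 CPM in leptotene and 34.9 CPM in zygotene. It was higher again in early pachytene, at 99.7 CPM (interval 93.2 to 107), and was 72.3 CPM in mid and 57.5 CPM in late pachytene. Dnmt1 was therefore lowest in zygotene, and only the leptotene interval overlapped the zygotene one. In WT, Dnmt1 was 114 CPM, 145 CPM and 298 CPM in spermatogonia stages 1, 2 and 3 and 356 CPM in preleptotene, where 9 UMIs in 12 cells give an interval of 163 to 676. WT cells held 0 Dnmt1 UMIs in leptotene and zygotene, where 11 and 24 cells allow up to 122 CPM and 47.6 CPM, and measured 28.9 CPM in early, 33.4 CPM in mid and 31.7 CPM in late pachytene. In later WT cells Dnmt1 was 19.5 CPM in diplotene, 8.94 CPM in the first meiotic division, 5.73 CPM, 1.83 CPM and 1.03 CPM in round spermatid stages 1, 2 and 3, and 2.35 CPM, from 2 UMIs, in elongated spermatids.

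Uhrf1 varied least with stage among the genes that reached 10 CPM. In the library labelled Zfp541-/- its highest level was 118 CPM in spermatogonia stage 3 and its lowest 36.7 CPM in late pachytene, with 93.1 CPM and 100 CPM in spermatogonia stages 1 and 2, 50.6 CPM in preleptotene, 76.1 CPM in leptotene, 63.4 CPM in zygotene and 60.5 CPM in early pachytene between them. With the stages ranked by level each interval overlapped that of its neighbour, except that mid pachytene, at 40.8 CPM (interval 39.1 to 42.7), lay above late pachytene. The 6 WT stages before pachytene held 0 to 9 Uhrf1 UMIs each. WT Uhrf1 was 42.3 CPM in early, 45.6 CPM in mid and 42.1 CPM in late pachytene, 33.7 CPM in diplotene and 25.7 CPM in the first meiotic division. It was 16.7 CPM, 8.59 CPM and 2.83 CPM in round spermatid stages 1, 2 and 3, and 3.53 CPM, from 3 UMIs, in elongated spermatids.

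The de novo enzymes were mostly spermatogonial. In the library labelled Zfp541-/-, Dnmt3a measured 66.8 CPM, 63.6 CPM and 62.8 CPM in spermatogonia stages 1, 2 and 3, 25.9 CPM in preleptotene and 9.24 CPM in leptotene. Zygotene cells were at 30.5 CPM (interval 24.0 to 38.2), above leptotene, and early, mid and late pachytene were at 6.64 CPM, 0.861 CPM and 0.341 CPM. Dnmt3b was highest in spermatogonia stage 2, at 154 CPM (interval 141 to 168), against 89.3 CPM in stage 1 and 60.2 CPM in stage 3. From preleptotene on it stayed at or below 8.87 CPM, its mid pachytene level. The WT spermatogonia, with 2 to 15 UMIs of each gene per stage, gave 75.8 CPM, 55.7 CPM and 21.3 CPM for Dnmt3a and 75.8 CPM, 167 CPM and 53.2 CPM for Dnmt3b. In WT mid and late pachytene Dnmt3a had 0 UMIs, and Dnmt3b was at 2.98 CPM and 2.01 CPM. From diplotene on, no WT stage exceeded 1.41 CPM of Dnmt3a or 0.858 CPM of Dnmt3b.

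Dnmt3l showed the opposite timing. In the library labelled Zfp541-/- it had 10 UMIs in all stages together, 5 of them in spermatogonia stage 1 (2.35 CPM), and that library held no cells annotated past diplotene. In WT it had 0 UMIs up to early pachytene, where 0 allows up to 3.34 CPM, and at least 31.9 CPM in each earlier stage. It measured 0.309 CPM (3 UMIs) in mid and 0.501 CPM (4 UMIs) in late pachytene, so these counts do not place its onset. It was 1.18 CPM in diplotene and 5.97 CPM in the first meiotic division. It reached 8.44 CPM in round spermatids of stage 1, 30.3 CPM (interval 26.8 to 34.0, from 282 UMIs) in stage 2 and 13.6 CPM in stage 3, with 2.35 CPM from 2 UMIs in elongated spermatids. The intervals of the 3 round spermatid stages did not overlap. At least 1 Dnmt3l UMI was found in 34.4% of the 619 cells of stage 2, against 0.249% of WT mid pachytene cells. After every cell was thinned to 3000 UMIs these shares were 9.05% and 0.0833%. Aire, on the other strand, had 3 UMIs (0.322 CPM) in the same stage 2 cells. In mouse, Dnmt3l transcripts of spermatocytes and spermatids are known to start from promoters within the gene and not to encode the full protein, and the 3′ counts do not separate them from the full-length form.

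Among the oxidising enzymes, Tet3 alone reached 10 CPM. It measured 54.5 CPM, 90.7 CPM and 61.5 CPM in spermatogonia stages 1, 2 and 3 of the library labelled Zfp541-/-, 23.7 CPM in preleptotene, 3.52 CPM in leptotene, 9.23 CPM in zygotene and 11.4 CPM in early pachytene. Mid and late pachytene were at 2.03 CPM and 1.83 CPM there, against 0 UMIs in both WT stages. WT spermatogonia stages 1, 2 and 3 had 2, 4 and 3 Tet3 UMIs, and no WT stage after pachytene exceeded 0.191 CPM. Tet1 reached at most 1.41 CPM, from 3 UMIs, in any stage of the library labelled Zfp541-/- and had 3 UMIs in the whole WT library. Tet2 had its highest measured level within pachytene in the library labelled Zfp541-/-. It had 0 to 3 UMIs per stage before pachytene, 0.466 CPM in early pachytene, 3.38 CPM (interval 2.89 to 3.94, 165 UMIs) in mid and 2.54 CPM (119 UMIs) in late pachytene. The mid pachytene interval overlapped that of preleptotene, 0.133 to 3.98. It also overlapped those of spermatogonia stages 1 and 3, which reach 3.40 and 2.93. The counts do not rank mid pachytene above these stages. WT cells held 1 Tet2 UMI, in diplotene.

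Of the 9 genes, 6 reached 10 CPM in a stage of the library labelled Zfp541-/- with at least 50 cells, and all 6 were highest before pachytene, as were 72.9% of the 10839 genes that reached it. Of the 9 stages with enough cells, 6 lie before pachytene. Dnmt3a and Dnmt3b, at most 6.64 CPM and 8.87 CPM in pachytene, reached 10 CPM only before it and could not be counted otherwise. The count over the 6 is therefore no measure of the 9. Hells was highest in preleptotene, Uhrf1 and Dnmt1 in spermatogonia stage 3, Dnmt3b and Tet3 in stage 2 and Dnmt3a in stage 1. In UMIs per cell the highest stage was spermatogonia stage 2 for Hells and stage 1 for Uhrf1 and Dnmt1. Uhrf1 was nearly level on that scale, at 0.908 in spermatogonia stage 1 against 0.884 in late pachytene. On a list of 35 related genes (partners of these proteins, readers of methylated DNA and repair factors of demethylation), 31 reached 10 CPM and 28 of these, or 90.3%, were highest before pachytene. A gene entered by its highest stage, so any that reached 10 CPM only before pachytene could not be counted otherwise. This share is therefore no measure of the 35.

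Pachytene levels were then compared between the libraries, wherever a stage had 50 or more cells in both. The library labelled Zfp541-/- had 2501 mid and 1945 late pachytene cells, and the WT library 1207 and 827. Early pachytene was compared within its clusters 12 and 16, because cluster 12 held 713 cells labelled Zfp541-/- and 75 WT cells, while cluster 16 held 451 cells labelled Zfp541-/- and 155 WT cells. Late pachytene was pooled although its mix also differed, with 884 cells labelled Zfp541-/- and 107 WT cells in cluster 5. Cluster 22 held 102 and 234, and cluster 0 held 959 and 486. Its pooled ratios therefore mix clusters in different proportions, and cluster ratios are given beside them. The log2 ratio was taken after 0.5 counts were added to each sum, a gene entered the counts if it reached 10 CPM in the higher library, and a 2-fold difference was the threshold for naming it higher or lower.

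**Figure D2:**
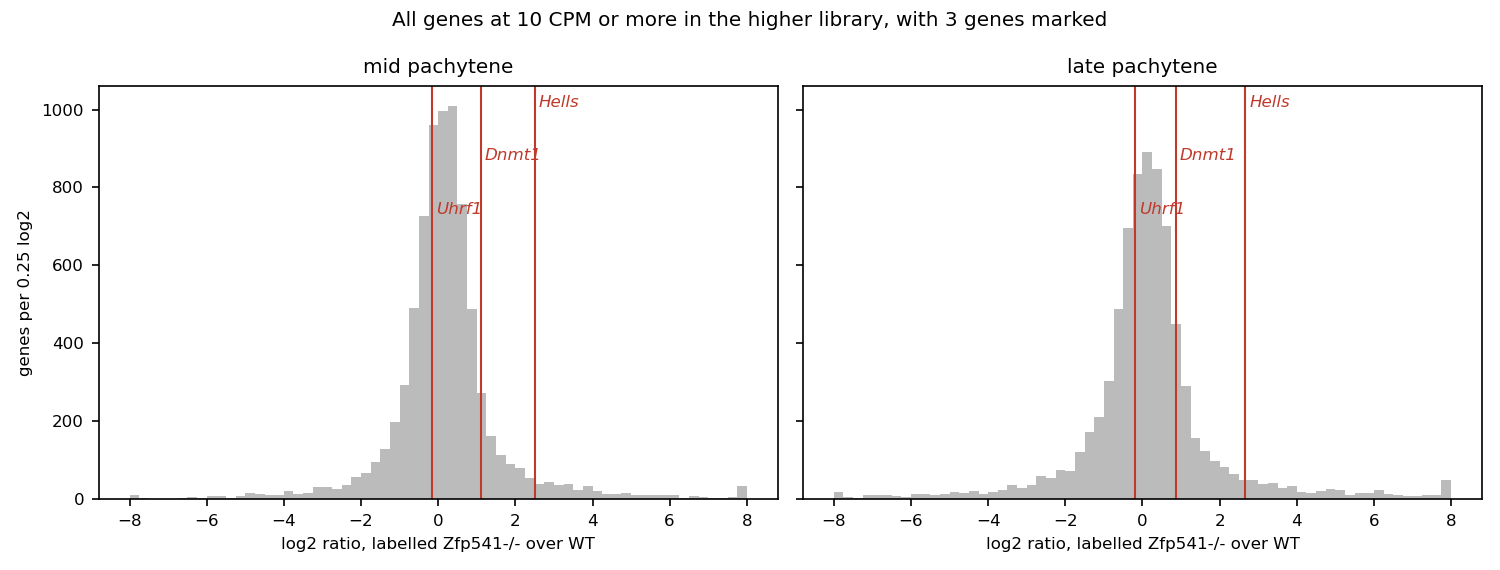
Number of genes (y axis) by log2 ratio of the library labelled Zfp541-/- over WT (x axis, with ratios past 8 or -8 in the end bins) in mid and late pachytene, with Hells, Dnmt1 and Uhrf1 marked. Hells, at 2.51 and 2.66, lies toward the upper end of all genes, Dnmt1 above the middle and Uhrf1 just below 0.

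In mid pachytene, 3 of the 9 genes reached 10 CPM, and 2 of them, Hells and Dnmt1, were at least 2-fold higher in the library labelled Zfp541-/-, where 15.0% of 7701 genes were. None was 2-fold lower, a direction taken by 10.6% of genes. The median log2 ratio was 1.11 for the 3 and 0.15 for all genes. In late pachytene the same 3 genes reached 10 CPM and 1, Hells, was 2-fold higher, against 17.4% of 7635 genes, and none was 2-fold lower, against 14.3%. There the median was 0.86 for the 3 and 0.11 for all genes. In early pachytene cluster 12, 4 of 5 genes were 2-fold higher (14.4% of genes) and none lower (8.77%), but Dnmt3a and Tet3 passed the filter only through the library in which they were higher, each on 1 WT UMI, so the count over these 5 is no measure of the 9. In cluster 16, 2 of 3 were higher (20.4%) and none lower (8.7%). With a minimum of 3 CPM in place of 10 CPM, the genes 2-fold higher were 4 in mid (16.8% of all genes) and 2 in late pachytene (19.3%). The added genes, Dnmt3b in both stages and Tet2 in mid pachytene, passed only through the library in which they were higher. These counts are therefore no measure of the 9 either. With UMIs per cell in place of CPM all 3 were 2-fold higher in both stages, as were 71.1% of genes in mid and 69.0% in late pachytene.

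Hells stood highest of the 3. It had 10412 UMIs in mid pachytene of the library labelled Zfp541-/- (213 CPM) and 364 in WT (37.4 CPM), a 5.70-fold difference (log2 2.51, interval 2.36 to 2.67). In late pachytene it had 7208 UMIs (154 CPM) in the library labelled Zfp541-/- and 193 (24.2 CPM) in WT, a 6.36-fold difference (log2 2.66, interval 2.46 to 2.88) that exceeded that of 93.7% of genes. The log2 ratio was 2.23 (interval 1.71 to 2.86, 2094 UMIs against 27 in WT) in early pachytene cluster 12 and 2.76 (interval 2.35 to 3.25, 1879 UMIs against 44 in WT) in cluster 16. It was above 1 in all 9 pachytene clusters, with intervals above 1 in each, and lay between 2.04 in cluster 4 and 2.95 in cluster 2. Cluster 4, the first of mid pachytene, had 283 CPM against 68.7 CPM in WT, and cluster 0, the last of late pachytene, 140 CPM against 27.1 CPM in WT.

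Dnmt1 differed less, and less in later clusters. Mid pachytene had 3527 UMIs (72.3 CPM) in the library labelled Zfp541-/- against 325 (33.4 CPM) in WT, a 2.16-fold difference (log2 1.11, interval 0.95 to 1.28). Late pachytene had 2697 UMIs (57.5 CPM) against 253 (31.7 CPM) in WT, a 1.81-fold difference (log2 0.86, interval 0.67 to 1.05). By cluster the log2 ratio was 2.06 in cluster 12, from 5 WT UMIs, and 1.85 in cluster 16. It was 1.34, 1.19, 0.94 and 0.93 in the mid pachytene clusters 4, 11, 2 and 7, and 0.93, 0.71 and 0.43 in the late pachytene clusters 22, 5 and 0. The clusters are in the order of the authors' table.

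Uhrf1, the partner of Dnmt1, did not share this difference. Mid pachytene had 1993 UMIs (40.8 CPM) in the library labelled Zfp541-/- and 443 (45.6 CPM) in WT, a log2 ratio of -0.16 (interval -0.31 to -0.0062). Late pachytene had 1720 UMIs (36.7 CPM) in the library labelled Zfp541-/- and 336 (42.1 CPM) in WT, a log2 ratio of -0.20 (interval -0.37 to -0.03). The ratio was slightly below 0 per total RNA, but above it, at 1.12 in both stages, when UMIs per cell were compared, a scale on which the median gene of either stage was at 1.43. Cluster ratios ran from 0.66 in cluster 12 to -0.57 in cluster 5, with intervals that excluded 0 only in clusters 5 and 0. In the late pachytene clusters 22, 5 and 0 they were -0.37, -0.57 and -0.31, each below the pooled -0.20.

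**Figure D3:**
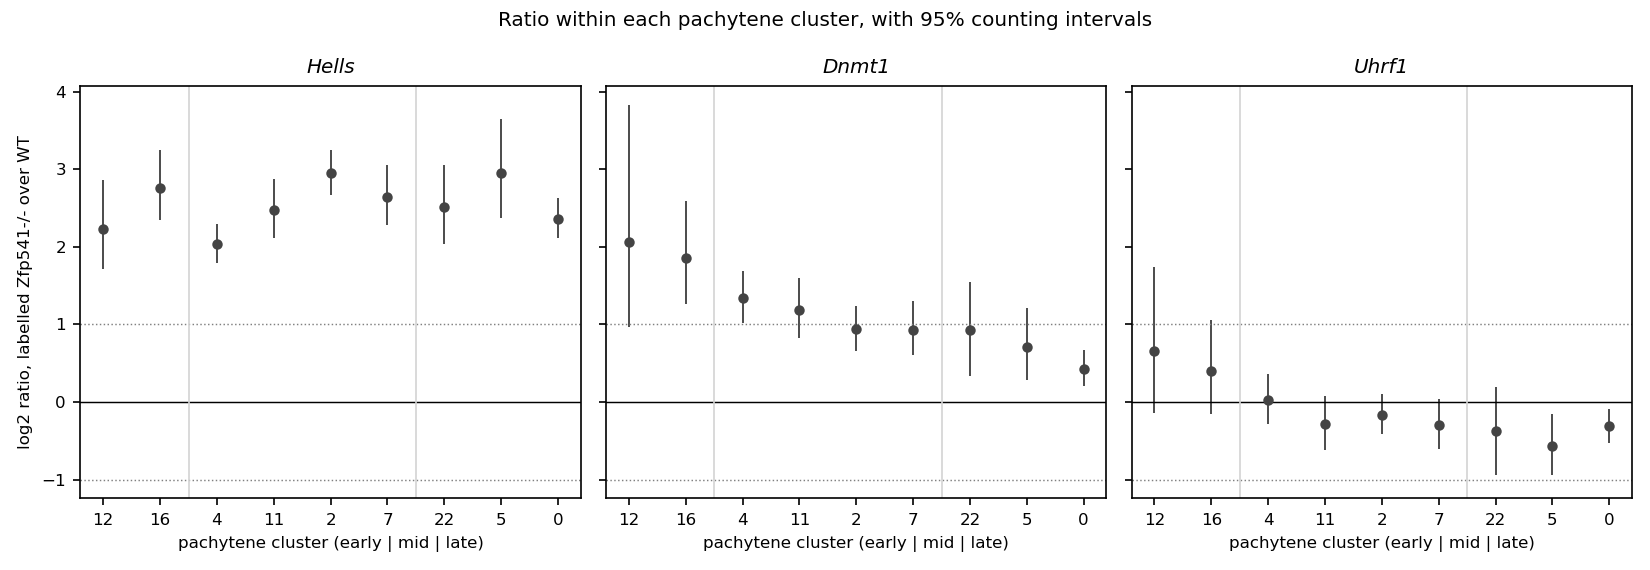
Log2 ratio of the library labelled Zfp541-/- over WT (y axis) for Hells, Uhrf1 and Dnmt1 in each pachytene cluster in the authors' order (x axis), with counting intervals as bars. Hells stays between 2.04 and 2.95, Dnmt1 is 2.06 in cluster 12 and 0.43 in cluster 0, and Uhrf1 lies near 0.

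The other genes were below 10 CPM in mid and late pachytene of both libraries. Dnmt3b had 433 UMIs (8.87 CPM) against 29 in WT (2.98 CPM) in mid pachytene, a log2 ratio of 1.55 (interval 1.03 to 2.17), and 368 UMIs (7.85 CPM) against 16 in WT (2.01 CPM) in late pachytene, a log2 ratio of 1.93 (interval 1.25 to 2.79). Its antisense neighbour Dnmt3bos was at 0.758 CPM against 0 in WT in mid and 0.789 CPM against 0.125 CPM in WT in late pachytene. With WT taken at a floor of 3 UMIs, Tet2 was at least 10.9-fold higher in mid and at least 6.75-fold higher in late pachytene, and Tet3 at least 6.57-fold and at least 4.88-fold higher. The exact counting intervals of these ratios begin lower, at 8.81-fold and 5.41-fold for Tet2 and at 5.25-fold and 3.88-fold for Tet3. Dnmt3a had 42 and 16 UMIs in mid and late pachytene of the library labelled Zfp541-/- and 0 in WT. Tet1 had 5 and 7 UMIs there against 1 and 0 in WT, and Dnmt3l 0 and 1 against 3 and 4 in WT. In early pachytene cluster 12, the 2-fold count includes Dnmt3a, with 53 UMIs against 1 in WT (log2 1.14, interval -0.83 to 7.04), and Tet3, with 61 UMIs against 1 in WT (log2 1.34, interval -0.62 to 7.24). Both intervals include 0, and the Tet3 ratio was -0.36 after each cell was thinned to 3000 UMIs.

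Depth differed between the libraries, since the median mid pachytene cell held 18665 UMIs in the library labelled Zfp541-/- and 7945 in WT, and the median late pachytene cell 23690 in the library labelled Zfp541-/- and 9210 in WT. After thinning to 3000 UMIs per cell, which left out 3 mid pachytene cells labelled Zfp541-/- and 7 WT ones, 45.4% of the mid pachytene cells labelled Zfp541-/- held a Hells UMI, against 9.42% in WT. Without thinning these shares were 94.1% in the cells labelled Zfp541-/- and 24.5% in WT. For Dnmt1 the thinned shares were 20.8% against 8.17% in WT (unthinned 69.5% against 23.0% in WT), and for Uhrf1 11.3% against 13.1% in WT (unthinned 53.1% against 29.5% in WT). In late pachytene, where 1 cell labelled Zfp541-/- and 2 WT cells were left out, the thinned shares were 34.5% against 8.0% in WT for Hells, 14.4% against 8.73% in WT for Dnmt1 and 10.3% against 11.5% in WT for Uhrf1. WT round spermatids of stage 3, where these genes are near their lowest, had thinned shares of 0.256% for Hells, 0.513% for Dnmt1 and 0.769% for Uhrf1, at a median of 19631 UMIs before thinning. Their unthinned shares were 2.04%, 2.04% and 4.58%. The WT pachytene shares lay above these spermatid shares, and the library labelled Zfp541-/- held no spermatids to set beside its own. The thinned spermatid shares were at or below 0.769%, the share that the floor of 3 counts gives in 390 cells. The origin of the spermatid UMIs was not tested. Tet2 was found in 6.20% of mid pachytene cells labelled Zfp541-/- (0.881% thinned) and in 0 of 1207 WT cells, for which the floor of 3 counts allows up to 0.249% of cells with a UMI and the exact interval up to 0.305%.

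RNA of earlier germ cells was measured beside these genes, because the library labelled Zfp541-/- held 3210 cells of the 6 stages before pachytene and the WT library 122. For each of 10 early genes, UMIs per cell in the library labelled Zfp541-/- were expressed as a percentage of the level in spermatogonia and preleptotene cells. In late pachytene the percentages ran from 0.80% for Stra8, the retinoic acid target of meiotic entry, over a median of 17.4%, to 3204% for Dmrtb1, which was abundant in pachytene. Sohlh1 was at 1.12%, Mki67 at 4.02%, Rrm2 at 8.29%, Sohlh2 at 13.2%, Kit at 21.7%, Mcm5 at 28.7%, Top2a at 74.8% and Pcna at 442%. On the same scale Hells was at 59.9%, Dnmt1 at 67.8%, Uhrf1 at 150%, Dnmt3b at 35.1%, Tet3 at 11.3% and Dnmt3a at 2.31%. In CPM, where the deeper pachytene cells do not raise the values, the late pachytene percentages were 15.5% for Hells, 17.5% for Dnmt1, 38.6% for Uhrf1, 9.04% for Dnmt3b, 2.92% for Tet3 and 0.595% for Dnmt3a, with a median of 4.50% over the 10 early genes, whose range was 0.206% to 826%. The list includes Dmrtb1 and Pcna, whose pachytene levels exceeded the early ones in mid and late pachytene. Its range and median therefore do not measure RNA carried from earlier cells. The part of RNA from earlier cells in the pachytene levels was not tested. In mid pachytene Stra8 was at 2.34 CPM against 0.103 CPM in WT. With the cells that held a Stra8 or Sohlh1 UMI left out, an alternative chosen after the data were seen, Hells had a log2 ratio of 2.48 in mid and 2.65 in late pachytene. This kept 2386 of 2501 mid pachytene cells labelled Zfp541-/- and 1206 of 1207 in WT. In late pachytene it kept 1883 of 1945 and all 827. With so few cells removed the ratio could change little, so it does not separate RNA of earlier cells.

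**Figure D4:**
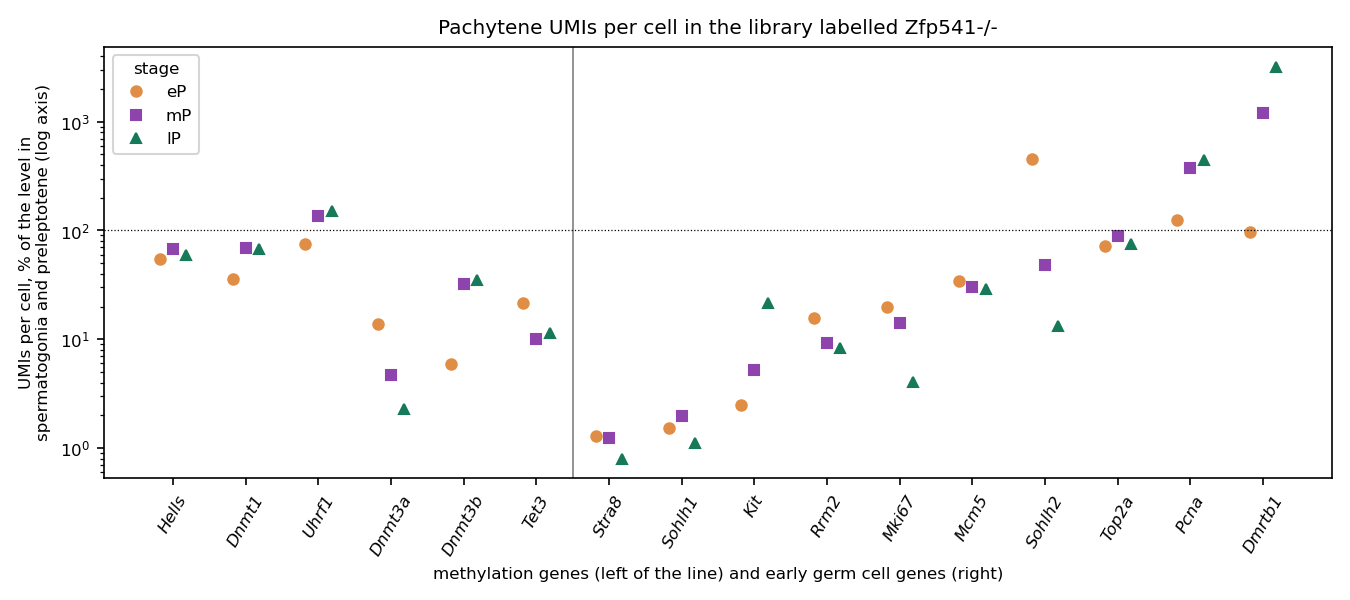
UMIs per cell in early, mid and late pachytene of the library labelled Zfp541-/- as a percentage of the level in spermatogonia and preleptotene cells (y axis, log scale), for 6 of the methylation genes and 10 early germ cell genes (x axis). In late pachytene Hells is at 59.9%, Dnmt1 at 67.8% and Uhrf1 at 150%. The 10 early genes run from 0.80% for Stra8 to 3204% for Dmrtb1, which is itself abundant in pachytene.

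Stage markers gave the context of these ratios. Summed pachytene markers were at 3734 CPM in mid pachytene labelled Zfp541-/- against 3790 CPM in WT, and at 3604 CPM in late pachytene against 3650 CPM in WT. Summed diplotene and division markers were lower in the library labelled Zfp541-/-. These were at 65.6 CPM against 135 CPM in WT in mid and 79.2 CPM against 246 CPM in WT in late pachytene. Summed leptotene and zygotene markers, led by Sycp3, were higher in the library labelled Zfp541-/-. Their sum was 1346 CPM against 995 CPM in WT in mid and 1060 CPM against 699 CPM in WT in late pachytene. Undifferentiated spermatogonia markers, led by Id4, were at 343 CPM against 152 CPM in WT in mid and 399 CPM against 115 CPM in WT in late pachytene. Etv5 was at 0 in WT mid and Ret at 0 in WT late pachytene. In the library labelled Zfp541-/- the Id4-led sum was only 233 CPM, 54.9 CPM and 42.1 CPM in spermatogonia stages 1, 2 and 3. Being higher in pachytene than in spermatogonia, it does not measure spermatogonial RNA. The wider spermatogonia list, led by Dmrtb1, was at 236 CPM against 278 CPM in WT in mid and 479 CPM against 572 CPM in WT in late pachytene. Since Dmrtb1 was abundant in pachytene itself, this sum does not measure spermatogonial RNA. Of the same list, Sohlh1 was at 0 in WT mid pachytene, and Sohlh1 and Stra8 at 0 in WT late pachytene. Elongating spermatid markers were at 0, 0 and 0.0213 CPM in early, mid and late pachytene of the library labelled Zfp541-/-, and at 753 CPM, 273 CPM and 213 CPM in WT. The part of these differences in the results for Hells and Dnmt1 was not tested.

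The 35 related genes, of which Pcna is also among the early genes and Prdm9 among the leptotene and zygotene markers, were counted in the same way. In mid pachytene 16 reached 10 CPM, of which 4 were at least 2-fold higher in the library labelled Zfp541-/-, 1 was 2-fold lower and 11 lay between, against 15.0% higher and 10.6% lower among all genes, with a median log2 ratio of 0.58. In late pachytene 15 reached it, of which 5 were higher, 1 lower and 9 between, against 17.4% and 14.3% of all genes, with a median of 0.21. Ehmt1 and Gadd45b in both stages, and Zbtb38 in late pachytene, passed the filter only through the library in which they were higher. The counts higher in these stages are therefore no measure of the 35. In early pachytene clusters 12 and 16 the counts were 6 higher and 0 lower of 19 (all genes 14.4% and 8.77%), and 8 higher and 1 lower of 22 (20.4% and 8.7%), with medians of 0.44 and 0.69. Ehmt1 was at 4.45 CPM in WT early pachytene, against at least 25.7 CPM in each ranked stage of the library labelled Zfp541-/-. In cluster 12 a floor of 3 WT UMIs is already 10.1 CPM. The counts in these clusters are therefore no measure of the 35 either.

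Prdm9, the methyltransferase that marks hotspots and works with HELLS, was at 6.58 CPM against 0.514 CPM in WT in mid and 4.65 CPM against 0.376 CPM in WT in late pachytene, below the 10 CPM filter. Its highest level was 198 CPM in preleptotene of the library labelled Zfp541-/-, the stage in which Hells was highest. Cdca7, a zinc finger protein that binds HELLS, was at 7.83 CPM against 0.720 CPM in WT in mid pachytene. In late pachytene it had 315 UMIs (6.72 CPM) against 0 in WT, at least 17.8-fold higher with WT at a floor of 3 UMIs. The exact counting interval of this ratio begins lower. Cdca7 was also below the 10 CPM filter in both stages. It was highest in spermatogonia stage 2, at 253 CPM. Usp7, a deubiquitinase that binds DNMT1 and UHRF1, was at 88.0 CPM against 63.7 CPM in WT in mid and 62.1 CPM against 53.8 CPM in WT in late pachytene. Uhrf2, the paralog of Uhrf1, was at 35.8 CPM against 21.1 CPM in WT in mid and 33.8 CPM against 15.0 CPM in WT in late pachytene, and was highest in zygotene, at 124 CPM.

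Lig1, the replicative DNA ligase to which UHRF1 binds, was at 74.9 CPM against 28.8 CPM in WT in mid and 63.3 CPM against 29.3 CPM in WT in late pachytene. Zbtb38, a reader of methylated DNA, was at 78.8 CPM against 10.7 CPM in WT in mid and 65.3 CPM against 4.64 CPM in WT in late pachytene. Ehmt1, a histone H3 lysine methyltransferase, was at 30.9 CPM against 1.03 CPM in WT and at 25.7 CPM against 0.501 CPM in WT, from 10 and 4 WT UMIs. Gadd45b, linked to repair-based demethylation, was at 19.8 CPM against 7.41 CPM in WT and at 24.9 CPM against 9.53 CPM in WT. Mbd3, a subunit of the NuRD complex, was the gene that was lower, at 136 CPM against 280 CPM in WT in mid and 140 CPM against 283 CPM in WT in late pachytene.

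Likeness of pattern was described by Pearson's r of log2(CPM + 1) over 18 stage sums of at least 50 cells, from both libraries, among 7915 genes. These sums share their libraries and the general change of RNA content along spermatogenesis. The genes most like Hells were Fkbp3 (0.993), Slk (0.992) and Iws1 (0.991). Those most like Uhrf1 were 2810004N23Rik (0.988), Fancd2 (0.988), which acts in crosslink repair, and Emg1 (0.987). Dnmt1 was most like Etaa1 (0.979) and Map3k4 (0.976). Dnmt3a was most like Usp22 (0.983), Ppdpf (0.981) and Ctsb (0.981). Dnmt3b was most like the replication licensing factor Cdt1 (0.954), Sertad4 (0.946) and Acly (0.940). Tet3 was most like Mcm2 (0.989), a subunit of the replicative helicase, Adi1 (0.987) and Adgrl1 (0.981). Among the genes themselves, r was 0.96 between Dnmt3a and Tet3, 0.93 between Hells and Dnmt1 and -0.73 between Hells and Dnmt3l.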

How the data were processed

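Single-cell RNA was measured with the 10x Chromium 3′ kit in 1 library labelled Zfp541-/- and 1 WT library of germ cells, sorted as tetraploid per the labels. Cell Ranger 3.1.0, Seurat 3.2.0 and the mm10 genome are named in the submitters' processing notes. The deposited matrices hold whole-number counts of UMIs per gene and cell barcode, without normalisation. Per the file headers, the authors' cell table gives each cell's total UMI count, the percent of mitochondrial UMIs, a cluster, a stage and a pseudotime score, the last not used here. The sources used here do not give how the authors named stages. No annotated cell fell below 1000 genes or exceeded 10.0% mitochondrial UMIs, limits read from the values as apparent filters. No doublet caller was run, and leaving out the deepest 5% of cells was an alternative. The merged matrix, which repeats these cells, was left out.

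UMIs were summed per gene, stage or cluster, and library, and scaled to CPM. Annotated cells held 119675250 UMIs in the library labelled Zfp541-/- and 108612781 in WT. Ratios had 0.5 counts added, and stages needed 50 cells in each library. Intervals of 95% were exact Poisson for sums, Clopper-Pearson for shares and conditional binomial for ratios. A count of 0 was read as allowing 3 counts. The ratio code was tested on simulated data. With 1 library per genotype no p-value was computed. The text names all 9 genes, the 3 genes most alike each one reaching 50 CPM, and from the related list Prdm9, Cdca7, Usp7, Uhrf2 and those past 2-fold. Of these, 1 gene is not reported here. The genes, lists and tests were chosen with earlier results of these data known. Python 3.11.15, numpy 2.4.6, scipy 1.17.1, pandas 2.3.3 and matplotlib 3.10.9 were used. The alternatives were other scalings, thinning, stricter cell and level filters, equal cluster weights and 1 added count.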

Additional observations from a re-analysis of the deposited data

How the results depend on the processing

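With 1 library per genotype nothing here measures the variation between mice. No paired analysis was possible because each genotype had 1 library, with no replicate number. The number of genes at least 2-fold higher in mid pachytene of the library labelled Zfp541-/-, 2 at a minimum of 10 CPM, was 4 at 3 CPM (16.8% of all genes) and 6 with no minimum (17.0%), and the number lower, 0, was 1 with no minimum (27.1%). In late pachytene the number higher, 1, was 3 with UMIs per cell (69.0%), 2 at 3 CPM (19.3%) and 6 with no minimum (18.1%), and the number lower, 0, was 1 with no minimum (28.1%). The genes added at 3 CPM passed only through the library in which they were higher. With no minimum, even Tet1 counted in late pachytene, on 7 UMIs against 0 in WT. The counts at 3 CPM and with no minimum are therefore no measure of the 9. All 6 genes that reached 10 CPM stayed highest before pachytene under every alternative run, although UMIs per cell moved the peaks of Hells, Uhrf1 and Dnmt1 to an earlier stage. On that scale Uhrf1 was nearly level, at 0.908 in spermatogonia stage 1 against 0.884 in late pachytene. Dnmt3a and Dnmt3b reached 10 CPM only before pachytene, so the filter itself chose them for that timing. With cells above 5% mitochondrial UMIs left out, only 8 stages had enough cells, and Dnmt3a was highest in spermatogonia stage 2. Of 290 log2 ratios under the alternatives, 271 stayed within the counting interval, 18 left it and 1 turned round: Tet3 in early pachytene cluster 12 was -0.36 after thinning, against 1.34. Hells was 2.72 in mid and 2.39 in late pachytene after thinning. Dnmt1 was 1.47 in mid pachytene after thinning and 0.67 in late pachytene with clusters weighted equally, where Uhrf1 was -0.43. The causes were not tested. A count of 0 in WT allows up to 0.309 CPM in mid and 0.376 CPM in late pachytene.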

Other observations

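In WT cells after pachytene, Uhrf1 RNA was above that of Dnmt1 and Hells, in 3′ counts of molecules, which do not scale with transcript length. It measured 25.7 CPM in the first meiotic division and 16.7 CPM in round spermatids of stage 1, against 8.94 CPM and 5.73 CPM for Dnmt1 and 9.12 CPM and 6.69 CPM for Hells. In WT diplotene Uhrf1 was at 33.7 CPM, Dnmt1 at 19.5 CPM and Hells at 16.9 CPM. Among WT round spermatids of stage 3, Dnmt3a had 11 UMIs (1.41 CPM), against 0 UMIs in WT mid and late pachytene.

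Within the WT library, Dnmt3l was not even across the clusters of diplotene and the first meiotic division. It measured 0.279 CPM, from 2 UMIs, in diplotene cluster 1, 1.41 CPM and 1.51 CPM in the diplotene clusters 9 and 3, and 1.95 CPM, 6.30 CPM and 7.15 CPM in the division clusters 14, 8 and 6.

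The 13 diplotene cells labelled Zfp541-/- held 36 Hells UMIs, or 93.9 CPM (interval 65.8 to 130), against 16.9 CPM in 2234 WT diplotene cells. Dnmt1 in the same cells was at 67.8 CPM (interval 44.3 to 99.4), against 19.5 CPM in WT, and Uhrf1 at 44.3 CPM (interval 25.8 to 71.0), against 33.7 CPM in WT. These are too few cells for the ratios above, which needed 50 in each library.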
